A study of Bos taurus with 30 samples.

Results

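Oxidative phosphorylation (OXPHOS) is carried out by 5 protein complexes of the inner mitochondrial membrane, and this report describes the nuclear genes that encode their subunits in bovine endometrial cells at 7 days postpartum (DPP). Members were taken by gene symbol: every name beginning with NDUF, UQCR, ATP5, COX4, COX5, COX6, COX7 or COX8, together with SDHA, SDHB, SDHC, SDHD and CYC1. The tables held 63 such genes among 10476, of which 30 belong by name to complex I, 5 to its NDUFAF assembly factors, 3 to complex II, 7 to complex III, 8 to complex IV and 10 to ATP synthase. All 63 passed the filter on low values (at least 1 CPM, the reads of a gene scaled to a common library total, in 5 of the libraries compared, or in 4 where the smaller group had 4 cows) in each of the 14 comparisons. SDHD, COX4I2, COX5B, COX6A1, COX6A2, COX6B2, COX8B and NDUFA4L2 were not analysed here.

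Complexes I and II take electrons from NADH and succinate, complex III passes them to cytochrome c, and complex IV hands them to oxygen, while complexes I, III and IV pump protons that drive ATP synthase. Subunits come from both genomes: mitochondrial DNA supplies a few core subunits of complexes I, III, IV and ATP synthase, whereas complex II and all remaining subunits are nuclear and imported. Neutrophils, the polymorphonuclear cells (PMN) that enter the uterus after calving, hold few mitochondria and live mainly on glycolysis, whereas epithelial, stromal and muscle cells of the uterus rely more on respiration.

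The cows were mixed-parity Holstein-Friesians of 1 commercial farm, and no agent was given to form the groups. A cytobrush was rolled on the uterine wall of each cow at 7 DPP, and the cow was classified at 21 DPP from its uterine cytology and its mucus. Cows which remained healthy are called Healthy, cows with PMN over a threshold of 18% at 21 DPP without purulent mucus have cytological endometritis (CYTO), and cows with purulent vaginal discharge (PVD) had PVD alone or PVD with CYTO. Healthy and CYTO cows were further divided by whether PMN at 7 DPP reached 18%, which gave 5 Healthy cows with low PMN, 5 Healthy cows with high PMN, 5 CYTO cows with low PMN and 4 CYTO cows with high PMN. All 8 PVD cows, 4 with PVD alone and 4 with PVD and CYTO, had high PMN. Disease was natural, and every library is a mixture of whatever cells the brush collected from 1 cow.

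Between 11923000 and 39202100 reads were counted per library over the 27 cows (median 23107800), and the lowest value of any member, 1.68 CPM for COX8A in cow s1831, was far above the 0.0255 to 0.0839 CPM that 1 read stood for. The label of endometrial cells was checked against marker lists. Epithelial markers (13 genes, none at 0 in any cow) summed to 447 to 6410 CPM, and stromal markers (11 genes, none at 0) to 271 to 52700.1 CPM. Neutrophil markers (11 genes, 1 at 0 in at least 1 cow) summed to 120.0 to 27296 CPM, so brushes differed widely in the marker RNA they held. In bulk samples such as these, fewer cells of a type and less RNA per cell cannot be told apart. Cow s1239, of PVD with CYTO, stood apart: its neutrophil markers summed to 27296 CPM against at most 7215 CPM in the other 26 cows, its TMM factor (trimmed mean of M values, a scaling factor for the composition of a library) was 0.449 against 0.831 to 1.16, and it held the lowest CPM of all 27 cows for 46 of the 63 members. Results that rest on it are given with and without it. The 20 most abundant genes took 11.2% to 26.02% of the reads, and the highest shares were in s2570 (26.02%), s1340 (25.8%) and s2224 (22.6%), which are 3 of the 5 Healthy low PMN cows, and in s1239 (24.0%).

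SDHA, the catalytic flavoprotein of complex II, was the only member that the study also tested by qPCR, as a candidate reference gene, and the primer pair designed for it shows which transcript was meant (gene ENSBTAG00000046019). Both primers are 20 bases long and are given 5′ to 3′ in lower case.
SDHA forward: aagacgttcgacaggggaat
SDHA reverse: actcgtcaaccctctccttg

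The summed level of the 63 members varied little across the groups. It was 5482 ± 482 CPM in Healthy low PMN cows, 5657 ± 405 in Healthy high PMN cows, 5327 ± 420.3 in CYTO low PMN cows and 5288 ± 614 in CYTO high PMN cows (mean ± SD, n = 5, 5, 5 and 4). In PVD alone it was 5138 ± 767 and in PVD with CYTO 4752 ± 1632 (n = 4 each), or 5542 ± 509 without s1239 (n = 3). All 6 groups overlapped, and the 26 cows other than s1239 lay between 4130.2 and 6237 CPM, a 1.51-fold range, where s1239 stood at 2385 CPM. Once CPM was divided by the TMM factors, the 27 cows lay between 4339 and 6419, a 1.48-fold range, and s1239 was the lowest cow for only 10 of the 63 members and the highest for 4. The low sum of s1239 thus held on CPM and not on the TMM scale.

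Mitochondrially encoded transcripts and glycolysis genes moved far more from cow to cow. The 11 mitochondrially encoded transcripts with an entry, the partners of these nuclear subunits, summed to 22601 to 79615 CPM, a 3.52-fold range, and 14 glycolysis genes to 1929 to 16603 CPM, an 8.61-fold range. Mitochondrially encoded transcripts were 55065 ± 11617 CPM in Healthy low PMN and 62618 ± 11898 in CYTO low PMN cows, against 34727 ± 10268 and 36366 ± 12112 in the high PMN cows of the same outcomes. Glycolysis genes went the other way, from 3222 ± 1828 and 3065 ± 373 CPM with low PMN to 7479.9 ± 5567 and 8155 ± 1179.8 with high PMN. The log2 ratio of the nuclear sum to the mitochondrially encoded sum accordingly lay at -3.31 ± 0.43 in Healthy low PMN, -2.57 ± 0.39 in Healthy high PMN, -3.54 ± 0.33 in CYTO low PMN and -2.73 ± 0.63 in CYTO high PMN cows, and at -3.04 ± 0.27 in PVD alone and -2.84 ± 0.33 in PVD with CYTO. The nuclear sum itself stayed within 1.51-fold in the cows other than s1239, in which these 2 sums did not. Such steadiness was not particular to the members. In the same cows 13 genes of the citric acid cycle summed to 1104 to 1705 CPM, and 66 mitochondrial ribosomal proteins to 1445 to 2427 CPM. A sum over genes is set by its most abundant members (ATP5A1, ATP5B and COX4I1 here), so single members are described next.

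**Figure D1:**
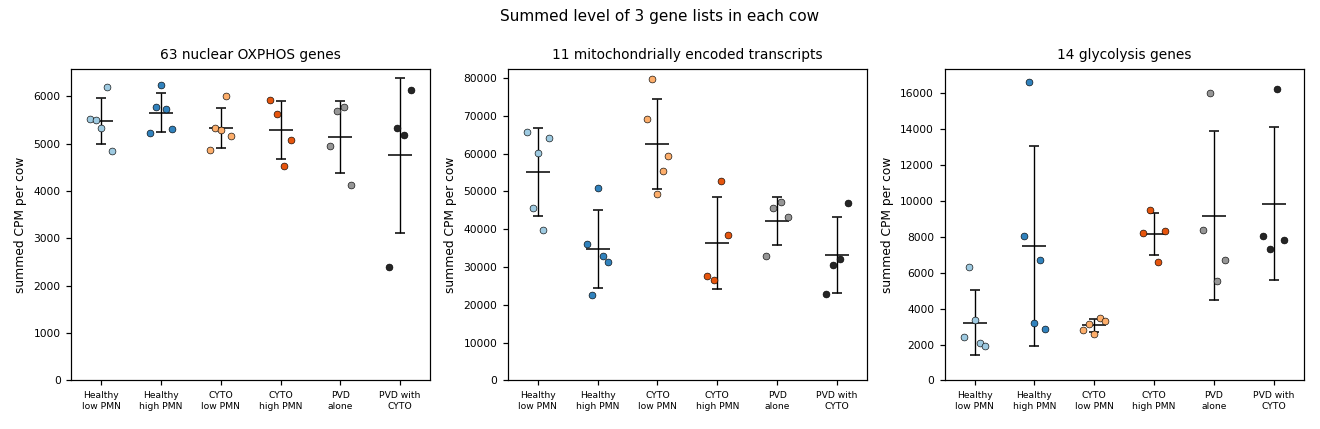
Summed CPM per cow (vertical axis) of the 63 nuclear OXPHOS genes, 11 mitochondrially encoded transcripts and 14 glycolysis genes, in the 6 groups (horizontal axis). Each point is 1 cow, and bars give the mean ± SD. Nuclear genes lie between 4130.2 and 6237 CPM in 26 cows with s1239 at 2385, whereas in Healthy and CYTO cows the mean of the mitochondrially encoded transcripts is lower and that of the glycolysis genes higher with high PMN.

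Members varied less between cows than most genes did: the SD of log2(CPM + 1) over 27 cows had a median of 0.40 over the members and 0.58 over all 10476 genes. The steadiest members were ATP5F1, a subunit of the peripheral stalk that holds ATP synthase still (SD 0.20), NDUFV3, an accessory subunit of the NADH-oxidising tip of complex I (0.27), NDUFB9, a membrane arm subunit of complex I (0.28), COX7A2, a small subunit of complex IV (0.28), and NDUFV2, an iron-sulfur subunit at the NADH end of complex I (0.29). ATP5F1 lay between 199 and 326 CPM in all 27 cows, s1239 included at 293 CPM. That cow stood apart for ATP5F1 on the TMM scale, at 653 against 187 to 369 in the other 26 cows, and the SD was then 0.36. It also stood apart for NDUFV3 on that scale, at 274 against 46.7 to 107, with an SD of 0.47. The order by SD thus depended on the scale, since NDUFS3, a subunit of complex I (0.17), and ATP5B (0.20) were steadier on the TMM scale than any of the 5. Without s1239 the SD of these 5 members was 0.18 to 0.23. SDHA had an SD of 0.43 on CPM (62.5 to 218 CPM, lowest in s1239), or 0.36 without s1239. Over all 27 cows the other candidate reference genes had 0.99 (GUSB), 0.48 (HSP90AB1) and 0.48 (RPS15). By a stability measure on qPCR values, the paper chose HSP90AB1 and RPS15 as the steadiest candidates. The SDs here are of another measure and do not bear on that choice.

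The least steady members were COX8A, a small subunit of complex IV (SD 1.09), NDUFB7, an accessory subunit of the membrane arm of complex I (0.92), ATP5D, the delta subunit of the ATP synthase rotor (0.83), NDUFS7, an iron-sulfur subunit next to the ubiquinone site (0.80), and NDUFS8, another iron-sulfur subunit of complex I (0.77). COX8A read 10.2, 3.68, 8.56, 23.7 and 1.70 CPM in Healthy low PMN cows s1340, s1890, s2006, s2224 and s2570, and 11.2, 16.4, 1.68, 14.2 and 22.1 CPM in Healthy high PMN cows s1066, s1570, s1831, s2053 and s2392. In CYTO cows it read 10.3, 2.86, 2.63, 10.2 and 2.04 CPM with low PMN and 13.1, 24.1, 3.91 and 12.8 CPM with high PMN. In PVD alone it was 11.6, 27.3, 15.97 and 3.35 CPM, and in PVD with CYTO 16.4, 22.6, 4.48 and 4.94 CPM. Low cows thus occurred in every group, and each group spanned several-fold. These 5 genes followed each other from cow to cow, with Pearson correlations of 0.88 to 0.98 between them over 27 cows, whereas their median correlation with the other 58 members was 0.040. NDUFS8 showed the same cows low: 15.3, 12.1, 12.6, 29.1 and 3.14 CPM in the Healthy low PMN cows and 19.6, 29.6, 5.28, 15.97 and 32.02 CPM in the Healthy high PMN cows, in the order above, with s2570 and s1831 lowest. The 5 genes were picked by SD, and other members also had s2570 and s1831 lowest of all 27 cows. These were CYC1 (16.3 and 30.4 CPM), NDUFV1 (9.63 and 14.3 CPM) and UQCRC1 (22.9 and 38.6 CPM), so the 5 were not a block apart. The correlations describe cows that share a method of library preparation but not depth (11923000 to 39202100 counted reads), and no test was attached to them.

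Over all 1953 pairs of members the median correlation was 0.54 and 84.3% of pairs were positive, but much of this came with 1 cow, since the median was 0.26 without s1239 and 0.30 on the TMM scale. ATP5A1 and ATP5B, which encode the alpha and beta subunits of the catalytic head of ATP synthase, had a correlation of 0.95, and 0.79 without s1239. COX6C and NDUFB3, subunits of different complexes, had one of 0.93, and 0.91 without s1239. SDHA and SDHB reached 0.75, or 0.61 without that cow. Lowest correlations with the mean of the other members belonged to NDUFV3 (-0.50), ATP5F1 (-0.20), COX8A (0.13), UQCRC1 (0.25) and NDUFS7 (0.33). Without s1239 these values were -0.087, 0.027, 0.33, 0.33 and 0.38. Outside the members, the genes most like their scaled mean were PSMB1, a proteasome subunit (0.95), MRPS7 and MRPL18, proteins of the mitochondrial ribosome (0.95 and 0.94), C14orf2, the symbol of a small protein of ATP synthase that the naming rule did not take in (0.95), and IDH3B, a subunit of isocitrate dehydrogenase (0.94). Without s1239 these 5 values were 0.82 to 0.89.

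**Figure D2:**
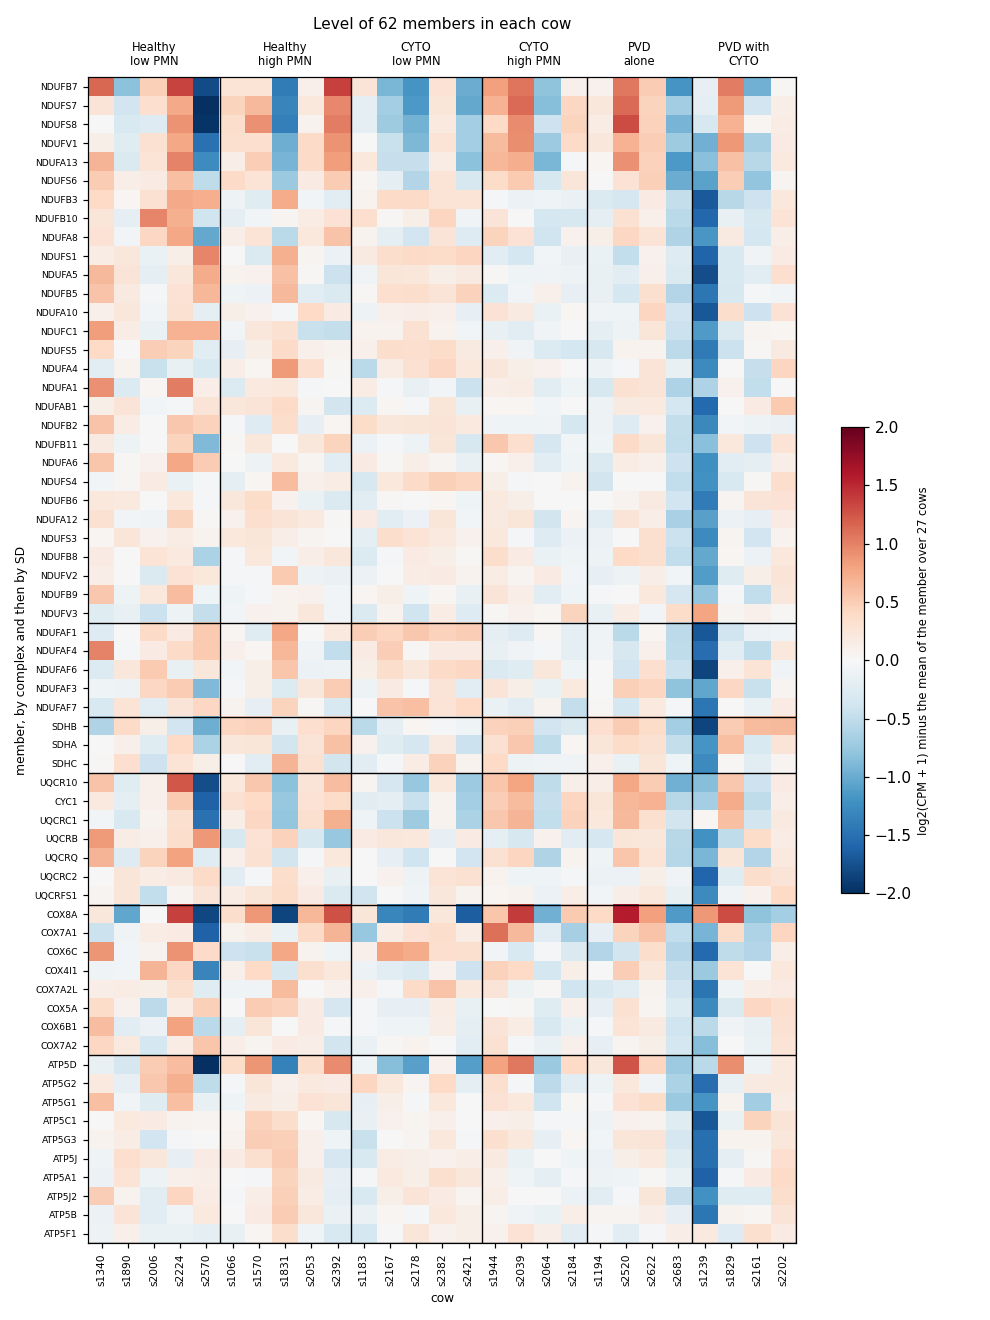
Level of 62 of the 63 members (rows, by complex and then by SD) in each of the 27 cows (columns, by group), as log2(CPM + 1) minus the mean of that member over the cows, with colours ending at 2 on either side. Cow s1239 is low for most rows. COX8A, NDUFB7, ATP5D, NDUFS7 and NDUFS8 are low together in s2570 and s1831, as are CYC1, NDUFV1 and UQCRC1.

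Inflammation early after calving was examined by setting cows with high PMN at 7 DPP against cows with low PMN, within outcomes and over both. In CYTO cows, 7 members were lower with high PMN and 0 were higher at an adjusted p below 0.05. The lower members were the complex I subunits NDUFS1, NDUFB2, NDUFB3 and NDUFS5, the complex I assembly factors NDUFAF1 and NDUFAF7, and the complex IV subunit COX6C, with fitted changes between -0.64 and -0.37 on the log2 scale. These 7 of 63 stand beside 25.0% of all 10443 genes tested that were called, 17.2% in the lower direction. The median change was 0.031 over the members and -0.14 over all genes, and no test was made of the members as a list.

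NDUFAF1, an assembly factor that takes part in building the membrane arm of complex I, read 23.2, 22.3, 24.2, 22.8 and 23.3 CPM in the CYTO cows with low PMN. In those with high PMN it read 14.2, 13.5, 16.6 and 14.1 CPM. All 4 high PMN cows lay below all 5 low PMN cows, and the fitted change was log2 change -0.64, SE 0.11, adjusted p = 0.00651. In Healthy cows the same gene did not part by PMN, with 13.5, 16.3, 21.5, 18.4 and 23.96 CPM at low PMN and 16.9, 13.6, 28.5, 16.4 and 18.7 CPM at high PMN, and cow s1831 was the highest of all 27. It was 13.5 ± 3.02 CPM in PVD alone and 11.7 ± 5.14 CPM in PVD with CYTO (n = 4 each), where s1239 read 4.33 CPM. Whether the PMN difference of NDUFAF1 differed between CYTO and Healthy cows was tested as an interaction, log2 change -0.62, SE 0.26, adjusted p = 0.28, which did not pass. Next in that test were NDUFA4 (log2 change -0.49, SE 0.27, adjusted p = 0.353) and NDUFAF7 (log2 change -0.49, SE 0.28, adjusted p = 0.368) in the same direction, and NDUFA6, NDUFA1 and UQCRQ in the other (adjusted p = 0.454 to 0.466). The background of that test was 0.0764% of genes called, and 0 members were called by limma, with 1 of 63 members (NDUFAF1) and 16.2% of all genes at an unadjusted p below 0.05.

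NDUFS1 encodes the large iron-sulfur subunit at the NADH end of complex I. It read 142, 161, 164, 162 and 170.2 CPM in CYTO cows with low PMN and 107, 98.8, 121 and 113 CPM in those with high PMN. Here too the groups did not overlap, with log2 change -0.54, SE 0.11, adjusted p = 0.0102. Healthy cows overlapped widely, with 140.3, 147, 114, 136 and 247 CPM at low and 127, 103, 206, 130.4 and 116 CPM at high PMN, and s2570 and s1831 were far above the rest of their groups. NDUFAF1 and NDUFS1 were the members that stayed called after TMM scaling (17.0% of all genes), with edgeR and DESeq2 on recovered reads, and when each of the 9 cows was left out in turn. With 1 spread shared by all 6 groups neither passed (adjusted p = 0.198 and 0.273), where 0.296% of all genes did.

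COX6C, a small subunit of complex IV with no part in catalysis, read 85.97, 141, 134, 101 and 99.6 CPM in CYTO cows with low PMN. With high PMN it read 76.5, 64.8, 78.6 and 65.2 CPM. The groups did not overlap, s1183 being the lowest of the low PMN cows, and the change was log2 change -0.63, SE 0.17, adjusted p = 0.0258. In Healthy cows COX6C read 148, 76.98, 83.4, 150.4 and 104 CPM at low PMN and 59.7, 58.2, 137, 83.6 and 74.8 CPM at high PMN. Those groups overlapped, because s1831 stood among the low PMN cows and s1890 and s2006 among the high PMN ones. It was 52.7, 61.6, 102 and 52.8 CPM in PVD alone and 26.6, 56.1, 52.7 and 87.6 CPM in PVD with CYTO, so 6 of the 8 PVD cows lay below s1890, the lowest low PMN cow.

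NDUFB2 and NDUFB3, accessory subunits of the membrane arm of complex I, had the same order. NDUFB2 read 34.2, 30.9, 31.2, 31.5 and 30.02 CPM with low PMN and 24.9, 24.5, 24.8 and 20.3 CPM with high PMN in CYTO cows, without overlap. The fit gave log2 change -0.41, SE 0.11, adjusted p = 0.0264. NDUFB3 read 34.3, 42.6, 42.8, 39.6 and 39.4 CPM and 31.7, 29.9, 30.7 and 29.6 CPM in the same groups, again without overlap, and the fit gave log2 change -0.37, SE 0.10, adjusted p = 0.0327. NDUFS5, an accessory subunit of complex I, and NDUFAF7, a methyltransferase that acts during complex I assembly, passed with overlapping groups. NDUFS5 was 70.3 ± 10.3 CPM against 93.8 ± 7.89 CPM (log2 change -0.42, SE 0.13, adjusted p = 0.0415), and NDUFAF7 was 12.3 ± 2.05 CPM against 18.6 ± 3.11 CPM (log2 change -0.56, SE 0.17, adjusted p = 0.0429). Counting groups that did not overlap in CPM, 6 members (COX6C, NDUFAF1, NDUFB2, NDUFB3, NDUFS1 and NDUFAF4, another assembly factor of complex I) and 23.9% of all genes met this, and all 6 were lower with high PMN. COX6C, NDUFAF7, NDUFB2, NDUFB3 and NDUFS5 missed the threshold after TMM scaling (adjusted p from 0.0599 to 0.141) and each of them missed it when at least 4 of the 9 cows were left out singly.

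The members with the smallest p in the higher direction in CYTO cows did not pass with limma. NDUFS8 was 20.7 ± 7.80 CPM against 11.2 ± 4.12 CPM (log2 change 0.81, SE 0.31, adjusted p = 0.0852), UQCRC1, a core subunit of complex III, was 86.02 ± 26.7 CPM against 52.9 ± 12.9 CPM (log2 change 0.66, SE 0.27, adjusted p = 0.0955), and ATP5D was 76.8 ± 34.6 CPM against 36.99 ± 15.4 CPM (log2 change 0.99, SE 0.40, adjusted p = 0.0982). In each of these genes cow s2064 was low among the high PMN cows. DESeq2 on the recovered reads called 9 members higher, among them these 3, and 4 lower (COX6C, NDUFAF1, NDUFB3 and NDUFS1), where it called 29.4% of all genes. EdgeR called only NDUFAF1 and NDUFS1 (17.1% of all genes). Scaling by TMM moved the median of all genes from -0.14 to 0.011 and that of the members from 0.031 to 0.19. Without s2064, 15 members and 31.5% of all genes were called, and without s2167, 2 members and 15.1% of all genes.

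Over Healthy and CYTO cows together, with the outcome in the model, 5 members were lower and 1 was higher in the 9 high PMN cows than in the 10 low PMN cows. The background was 28.7% of all genes called, 15.8% lower and 13.0% higher, beside 6 of 63 members. Lower were COX6C, NDUFB2, NDUFB3, NDUFB5 and UQCRB, and NDUFV3 was higher. The median change was 0.016 over the members and 0.017 over all genes.

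NDUFV3 was the 1 member called higher. It read 59.3, 63.1, 52.1, 65.2 and 50.2 CPM in Healthy low PMN cows and 67.8, 74.9, 73.7, 82.2 and 67.5 CPM in Healthy high PMN cows, without overlap. In CYTO cows it read 57.4, 74.2, 53.5, 78.00 and 58.9 CPM with low PMN and 71.6, 74.5, 72.00 and 96.1 CPM with high PMN, which overlapped through s2167 and s2382. Together it was 75.6 ± 8.83 CPM in 9 high PMN cows and 61.2 ± 9.18 CPM in 10 low PMN cows (log2 change 0.31, SE 0.096, adjusted p = 0.0244), and this held when each of the 19 cows was left out in turn. In PVD cows it read 63.6, 78.3, 68.03 and 90.7 CPM in PVD alone and 123, 73.1, 76.01 and 71.9 CPM in PVD with CYTO. The 123 CPM of s1239 was the highest of all 27 cows, in the library where 46 members were at their lowest.

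COX6C was 77.6 ± 23.9 CPM in the 9 high PMN cows and 112 ± 28.1 CPM in the 10 low PMN cows (log2 change -0.54, SE 0.17, adjusted p = 0.0272). For NDUFB2 the fit gave log2 change -0.38, SE 0.10, adjusted p = 0.0145, and it stayed called when any 1 of the 19 cows was left out. NDUFB3 gave log2 change -0.39, SE 0.13, adjusted p = 0.0304. In Healthy cows NDUFB3 read 43.4, 33.6, 40.6, 55.8 and 54.4 CPM at low and 30.4, 27.4, 55.4, 31.3 and 28.00 CPM at high PMN, where s1831 alone of the high PMN cows reached the level of the low PMN cows. NDUFB5, a further membrane arm subunit of complex I, was 77.4 ± 15.2 CPM and 61.6 ± 18.9 CPM in Healthy cows (n = 5 each), and 74.1 ± 8.43 CPM and 56.5 ± 6.50 CPM in CYTO cows (n = 5 and 4) at low and high PMN. Its overall change was log2 change -0.36, SE 0.13, adjusted p = 0.0386, and s1831 at 94.9 CPM was again far above the other Healthy high PMN cows (49.1 to 56.9 CPM). UQCRB, a subunit of complex III near the ubiquinone-binding site, read 108, 66.2, 64.2, 76.6 and 109 CPM in Healthy low PMN cows and 47.6, 72.9, 82.3, 47.8 and 34.7 CPM in Healthy high PMN cows. CYTO cows gave 66.9, 70.2, 69.5, 53.1 and 66.8 CPM and 52.2, 47.5, 63.2 and 50.6 CPM, and the fit over both outcomes log2 change -0.45, SE 0.16, adjusted p = 0.0395. Groups overlapped in both outcomes. UQCRB was not called with TMM, RLE, edgeR or DESeq2, and the calls of UQCRB and of NDUFB5 were each lost in 13 of 19 fits that left out 1 cow. That of NDUFB3 was lost in 7 and that of COX6C in 4 of them. NDUFB5 was called with TMM and DESeq2 and not with RLE or edgeR.

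Next in the higher direction were SDHB, the iron-sulfur subunit of complex II (log2 change 0.42, SE 0.18, adjusted p = 0.0816), and UQCRC1 (log2 change 0.55, SE 0.24, adjusted p = 0.0859), neither of which passed. Without s1831, 16 members and 38.0% of all genes were called, with NDUFS1, NDUFS5, NDUFAF1, NDUFAF4, NDUFAF7 and NDUFC1 added lower and ATP5D, COX8A, NDUFS8 and UQCRC1 added higher. Without s1066, 2 members and 21.8% of all genes were called, and without s1340, s2224 and s2570, whose most abundant genes took the largest shares of reads among low PMN cows, 0 members and 7.86% of all genes. EdgeR called 5 members (NDUFV3 higher, COX6C, NDUFB2, NDUFB3 and NDUFS5 lower; 28.1% of all genes) and DESeq2 9 members, 2 of them higher (35.9% of all genes). COX6C, NDUFB2, NDUFB3 and NDUFV3 were called by limma, edgeR and DESeq2 alike.

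**Figure D3:**
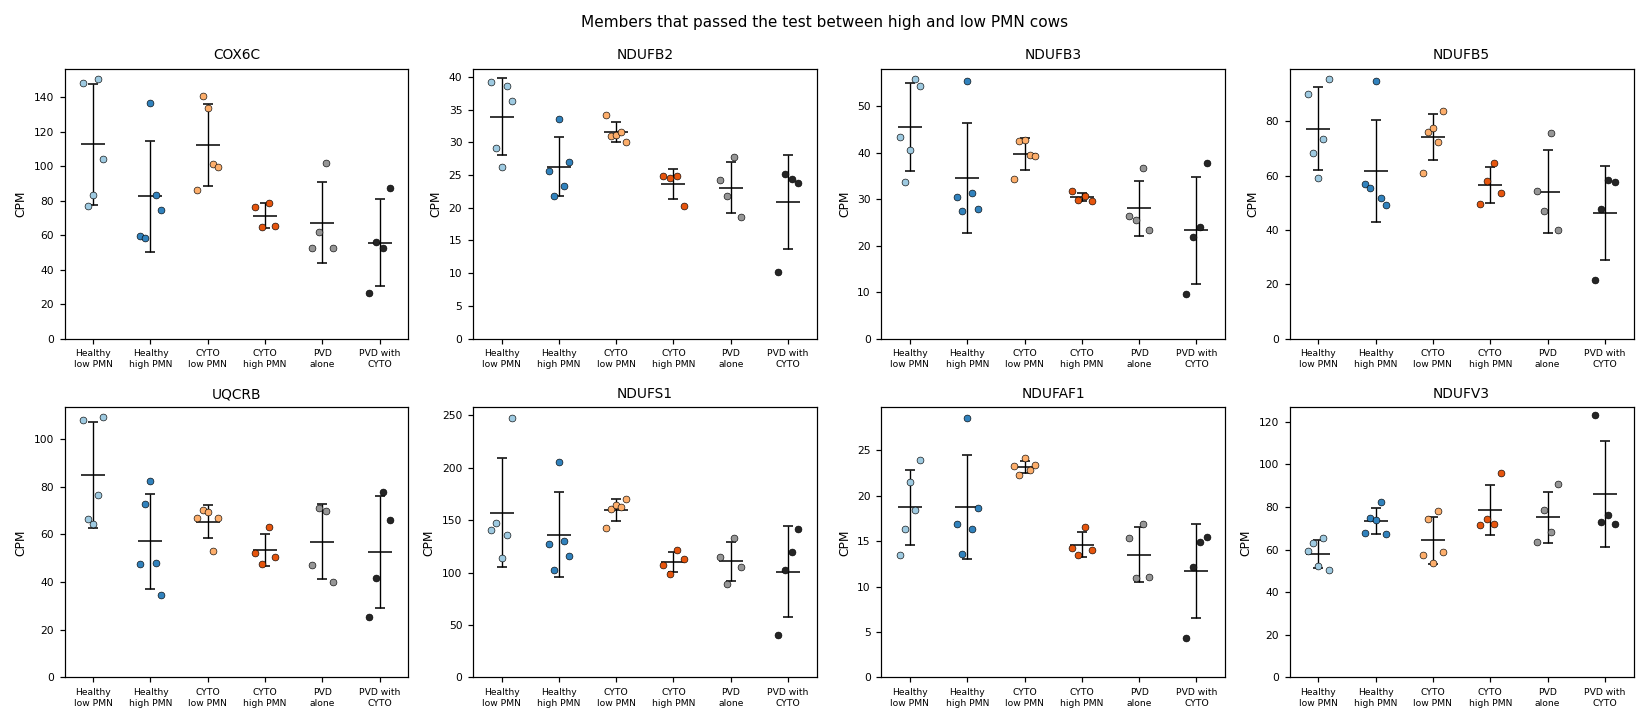
CPM (vertical axis) in each cow of the 6 groups (horizontal axis) for 8 of the 10 members called between high and low PMN cows. Points are cows and bars the mean ± SD. COX6C, NDUFB2, NDUFB3, NDUFS1 and NDUFAF1 are lower in every CYTO cow with high PMN than in any with low PMN, and NDUFV3 is higher in every Healthy cow with high PMN than in any with low PMN.

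Marker lists moved with the same split. Over Healthy and CYTO cows, 10 of 11 neutrophil and 9 of 11 macrophage and monocyte markers were called higher. Of the epithelial markers 4 of 13 were lower and 1 higher, 6 of 9 markers of gland secretion were lower, and 3 of 11 stromal markers higher. Beside these, 28.7% of all genes were called, 13.0% higher and 15.8% lower. Stromal markers summed to 271 to 24958 CPM at low and 13773 to 52700.1 CPM at high PMN in Healthy cows. In CYTO cows their sums were 2513 to 38322 CPM and 10787 to 26347 CPM, so the groups overlapped in both outcomes. Neutrophil markers summed to 325 to 705 CPM in CYTO cows with low PMN and to 3738 to 6981 CPM in those with high PMN. In Healthy cows the sums were 120.0 to 624 CPM and 270 to 5218 CPM. Epithelial markers had means of 3954 CPM at low and 895 CPM at high PMN in Healthy cows, and of 1983 and 1315 CPM in CYTO cows. Each CYTO mean was raised by a single cow. With low PMN, s1183 stood at 5227.98 CPM and the other cows at 872.319 to 1436.95 CPM. With high PMN, s2184 stood at 2569.99 CPM and the other cows at 661.278 to 1098.56 CPM. The CYTO groups thus overlapped, and their means give no direction for the epithelial markers. The part of these cell types in the changes of COX6C, NDUFAF1, NDUFB2, NDUFB3, NDUFB5, NDUFS1, NDUFS5, NDUFAF7, UQCRB and NDUFV3 was not tested.

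In Healthy cows alone, which asks what goes with inflammation that later resolved, 0 members and 0% of 10424 genes were called by limma. EdgeR called 0 members and 0% of all genes, and DESeq2 called 0 members and 9.85% of all genes. At an unadjusted p below 0.05 there were 3 members, all higher, against 25.8% of all genes, and the median change was 0.020 over the members and 0.14 over all genes. NDUFA4, first described in complex I and now regarded as a subunit of complex IV, read 103, 125, 87.6, 107 and 96.5 CPM at low PMN and 130.1, 123, 215, 151 and 121 CPM at high PMN (log2 change 0.48, SE 0.20, adjusted p = 0.16). High PMN cows overlapped the low PMN cow s1890 only. SDHB read 82.7, 166, 137, 96.4 and 63.5 CPM and 169.6, 175, 114, 160.3 and 169.9 CPM (log2 change 0.59, SE 0.27, adjusted p = 0.189), and without the low PMN cow s1890 it passed (0.76, adjusted p = 0.0449), as did 24.0% of all genes. NDUFV3 gave log2 change 0.33, SE 0.15, adjusted p = 0.185 and was the 1 member whose groups did not overlap, as for 1.17% of all genes. Lowest in p of the other direction were UQCRB (log2 change -0.59, SE 0.27, adjusted p = 0.196), NDUFC1, an accessory subunit of complex I (log2 change -0.54, SE 0.26, adjusted p = 0.221), and NDUFA6, another (log2 change -0.40, SE 0.19, adjusted p = 0.222). Scaling by TMM turned the median of the members from 0.020 to -0.12 and that of all genes from 0.14 to -0.0046.

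Using the measured share of PMN at 7 DPP in place of the threshold, over 27 cows with the outcome in the model, 1 member was called, and 14.3% of all genes were called (5.53% higher). This was UQCRC1, with a log2 slope of 0.11 per 10 percentage points of PMN (SE 0.036, adjusted p = 0.0419). It read 64.2, 53.9, 70.3, 83.1 and 22.9 CPM in Healthy low PMN and 72.8, 89.2, 38.6, 83.6 and 109.7 CPM in Healthy high PMN cows, 62.8, 49.3, 40.2, 69.7 and 42.4 CPM in CYTO low PMN and 97.5, 108, 47.3 and 91.6 CPM in CYTO high PMN cows, and 76.9, 104, 83.3 and 51.4 CPM in PVD alone and 68.8, 101, 51.4 and 75.6 CPM in PVD with CYTO. The lowest cows of the high PMN groups were s1831, s2064, s2683 and s2161, every high PMN group overlapped the low PMN cows, and leaving out any 1 of 14 cows ended the call. Next were UQCRB (log2 slope -0.087, SE 0.031, adjusted p = 0.0558), COX6C (log2 slope -0.092, SE 0.034, adjusted p = 0.0614), COX8A (log2 slope 0.20, SE 0.073, adjusted p = 0.0642), ATP5D (log2 slope 0.15, SE 0.056, adjusted p = 0.0704) and NDUFB2 (log2 slope -0.060, SE 0.024, adjusted p = 0.0813). On the TMM scale 25.0% of all genes and 11 members were called, 5 higher and 6 lower, with ATP5D, CYC1, NDUFS7, NDUFS8 and UQCRC1 higher and COX6C, NDUFB2, NDUFB3, NDUFAF1, NDUFAF7 and NDUFS1 lower.

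A test for any difference over the 6 groups called, of the members, COX6C only (adjusted p = 0.0498), against 16.8% of all genes. NDUFB3 (adjusted p = 0.0532) and NDUFAF1 (0.0562) followed. By mean CPM the order of COX6C was Healthy low PMN 113, CYTO low PMN 112, Healthy high PMN 82.6, CYTO high PMN 71.3, PVD alone 67.2 and PVD with CYTO 55.8, and each pair of neighbours in this order overlapped. Leaving out any 1 of 20 cows ended the call, s1239 among them (adjusted p = 0.0644). Scaling ended it too, with TMM (adjusted p = 0.0510) and RLE (0.0575). With TMM the members called were NDUFAF1, NDUFB2 and NDUFB3 (19.3% of all genes), and with RLE NDUFB2 and NDUFB3 (18.2%).

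Disease was examined against cows which remained healthy. For PVD against Healthy, 0 members and 0% of 10454 genes were called by limma. EdgeR called 0 members and 0% of all genes, and DESeq2 called 0 members and 8.70% of all genes. At an unadjusted p below 0.05, 10 members were lower and 0 higher, where 21.3% of all genes lay under that p. They were COX6C, NDUFA5, NDUFA6, NDUFAF1, NDUFAF4, NDUFB2, NDUFB3, NDUFB5, NDUFS1 and NDUFS5. Of these 9 are of complex I or its assembly, which hold 30 and 5 of the 63 members, and 1 is of complex IV, which holds 8. NDUFB3 was 25.7 ± 8.88 CPM against 40.05 ± 11.6 CPM (log2 change -0.66, SE 0.24, adjusted p = 0.195), COX6C 61.5 ± 23.2 CPM against 97.7 ± 35.4 CPM (log2 change -0.67, SE 0.25, adjusted p = 0.197) and NDUFAF1 12.6 ± 4.02 CPM against 18.8 ± 4.72 CPM (log2 change -0.58, SE 0.23, adjusted p = 0.199) over 8 PVD and 10 Healthy cows. In each of these genes the PVD and Healthy cows overlapped. Of the 10 Healthy cows 5 had low PMN and all PVD cows had high PMN, so outcome and PMN cannot be told apart in this comparison. The median over the members was -0.25, against -0.13 over all genes, and it was -0.073 without s1239. With 1 spread shared by the 6 groups, NDUFB3 and COX6C passed (adjusted p = 0.0337 and 0.0454), where 10.7% of all genes did.

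Against the Healthy cows that also had high PMN, no member of any disease group passed. For PVD alone the background was 0% of genes called (0.710% at an unadjusted p below 0.05), for PVD with CYTO 0% (1.63%), and for CYTO 0.412% (4.83%), and members numbered 0 at either threshold by limma. EdgeR and DESeq2 also called 0 members, where edgeR called 0%, 0% and 0.134% of all genes in that order and DESeq2 0%, 0.0959% and 1.27%. NDUFAF1 was among the lowest of each: 13.5 ± 3.02 CPM against 18.8 ± 5.73 CPM (log2 change -0.43, SE 0.26, adjusted p = 1) in PVD alone, 11.7 ± 5.14 CPM against 18.8 ± 5.73 CPM (log2 change -0.72, SE 0.41, adjusted p = 0.697) in PVD with CYTO and 14.6 ± 1.37 CPM against 18.8 ± 5.73 CPM (log2 change -0.31, SE 0.22, adjusted p = 1) in CYTO. These 3 comparisons share their 5 control cows, of which s1831 read 28.5 CPM. The 95% intervals of these changes ran from -1.01 to 0.15, from -1.63 to 0.18 and from -0.80 to 0.19. They are wide enough to hold a change as large as that between the CYTO groups. That change is of another contrast, high against low PMN, so the overlap does not link the 2. Others with the smallest p were NDUFS4, an accessory subunit needed for a stable NADH end of complex I (log2 change -0.36, SE 0.21, adjusted p = 1), and COX7A2L, a protein that joins complexes III and IV (log2 change -0.33, SE 0.20, adjusted p = 1), in PVD alone. In PVD with CYTO they were ATP5G1, which encodes the ring subunit c (log2 change -0.57, SE 0.34, adjusted p = 0.697), and NDUFA4 (log2 change -0.60, SE 0.38, adjusted p = 0.697). In CYTO they were NDUFS5 (log2 change -0.25, SE 0.17, adjusted p = 1) and ATP5G2 (log2 change -0.25, SE 0.19, adjusted p = 1).

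In the higher direction the leading members of these 3 comparisons were CYC1, the cytochrome c1 of complex III (log2 change 0.14, SE 0.33, adjusted p = 1), COX8A (log2 change 0.15, SE 0.68, adjusted p = 1) and NDUFS7 (log2 change 0.091, SE 0.49, adjusted p = 1) in PVD alone. NDUFV3 and ATP5F1 were the only members with a positive value in PVD with CYTO (log2 change 0.20, SE 0.29, adjusted p = 0.74 and log2 change 0.13, SE 0.29, adjusted p = 0.811). NDUFV3 (log2 change 0.093, SE 0.15, adjusted p = 1), ATP5F1 (log2 change 0.10, SE 0.18, adjusted p = 1) and CYC1 (log2 change 0.15, SE 0.30, adjusted p = 1) led in CYTO. That 61 of 63 members had negative values in PVD with CYTO went with a median of -0.36 over all genes, and the median of the members moved from -0.37 to -0.070 without s1239 and to -0.026 with TMM scaling.

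PVD with CYTO was also set against CYTO with high PMN and against PVD alone, with 0% of genes called in both (1.29% and 0.115% at an unadjusted p below 0.05) and 0 members at either threshold by limma, and 0 members and 0% of genes with edgeR and DESeq2. In the former NDUFB3 (log2 change -0.52, SE 0.41, adjusted p = 0.934), NDUFS6, an accessory subunit of complex I (log2 change -0.53, SE 0.43, adjusted p = 0.934), and COX6C (log2 change -0.46, SE 0.38, adjusted p = 0.934) had the smallest p among the lower members. In the latter they were SDHC, a membrane anchor of complex II (log2 change -0.39, SE 0.38, adjusted p = 0.944), ATP5G1 (log2 change -0.39, SE 0.43, adjusted p = 0.944) and NDUFB3 (log2 change -0.38, SE 0.44, adjusted p = 0.944). NDUFV3 and ATP5F1 were again the 2 members with positive values in both. Without s1239 the medians of the members were -0.031 and 0.053 in place of -0.30 and -0.25.

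CYTO against Healthy, over 9 and 10 cows, gave 0 members and 0% of genes (2.06% at an unadjusted p below 0.05, with 0 members) by limma, and 0 members with edgeR (0% of genes) and DESeq2 (0.220%). NDUFA1, a small accessory subunit of complex I, was 25.8 ± 3.42 CPM against 32.3 ± 11.6 CPM (log2 change -0.26, SE 0.16, adjusted p = 0.986), and COX5A, a subunit of complex IV, 89.03 ± 8.38 CPM against 104 ± 23.4 CPM (log2 change -0.19, SE 0.13, adjusted p = 0.986). NDUFA6 (log2 change -0.18, SE 0.12, adjusted p = 0.986) completed the lower members with the smallest p, and ATP5F1 (log2 change 0.10, SE 0.10, adjusted p = 0.986), NDUFV3 (log2 change 0.10, SE 0.12, adjusted p = 0.986) and COX7A1, the form of subunit VIIa typical of muscle (log2 change 0.18, SE 0.27, adjusted p = 0.986), the higher ones. Within low PMN cows, 0 members and 0% of genes were called (13.6% at an unadjusted p below 0.05, with 0 members). NDUFA6 (log2 change -0.34, SE 0.17, adjusted p = 0.373), UQCRQ, a small subunit of complex III (log2 change -0.48, SE 0.25, adjusted p = 0.376), and UQCRB (log2 change -0.34, SE 0.19, adjusted p = 0.385) were lowest in p, and NDUFAF1 (log2 change 0.32, SE 0.17, adjusted p = 0.385), NDUFA4 (log2 change 0.32, SE 0.19, adjusted p = 0.413) and NDUFS4 (log2 change 0.24, SE 0.17, adjusted p = 0.467) led in the higher direction. DESeq2 called 0.384% of genes here and 1 member, ATP5C1, the gamma subunit of the rotor (log2 change -0.30, adjusted p = 0.0232). TMM scaling moved the median of the members from -0.084 to -0.30 and that of all genes from 0.20 to -0.015.

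**Figure D4:**
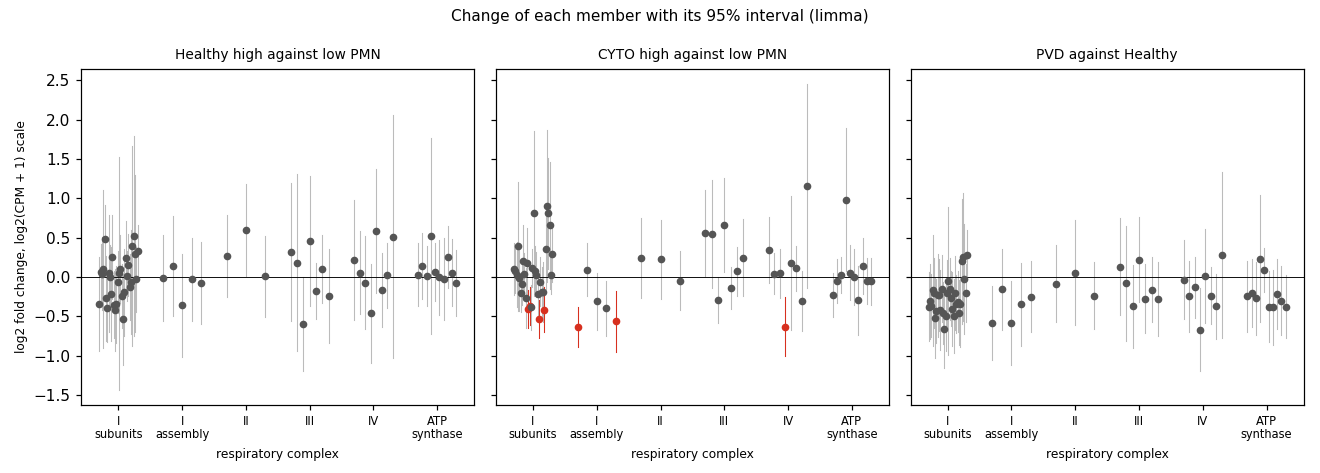
Change of each of the 63 members (points, by complex on the horizontal axis) as a log2 fold change on the log2(CPM + 1) scale (vertical axis) with its 95% interval (lines) in 3 comparisons. Red marks the 7 members called, all of them lower in CYTO cows with high PMN, and in the other panels 0 are called.

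By complex, the largest summed levels belonged to ATP synthase, at 2273 ± 334 CPM over 27 cows, followed by complex I at 1451 ± 221, complex IV at 715 ± 125, complex III at 439.9 ± 72.7, complex II at 349 ± 81.7 and the NDUFAF assembly factors at 70.0 ± 14.4. These sums depend on transcript lengths and numbers of genes and are compared only across groups. Assembly factors were 83.4 ± 5.38 CPM in CYTO low PMN against 63.6 ± 3.64 in CYTO high PMN cows, without overlap (75.0 to 89.6 and 60.9 to 68.8 CPM), and 76.00 ± 6.77 against 73.3 ± 11.5 in Healthy cows, which overlapped. Complex II went in the other direction without parting the groups, at 317 ± 67.9 and 313 ± 35.8 CPM with low PMN and 394 ± 39.96 and 362 ± 92.1 with high PMN. Complex III was 465.7 ± 66.5 and 400.4 ± 37.6 with low PMN and 456 ± 34.5 and 459 ± 69.4 with high PMN, and ATP synthase 2308 ± 145 and 2336 ± 183 against 2433 ± 317 and 2234 ± 199, in Healthy and CYTO cows in that order. No test was made on these sums.

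ATP5A1, the alpha subunit of the catalytic head, was 612 ± 70.2 CPM, 629 ± 105 CPM, 659 ± 59.8 CPM and 564 ± 48.96 CPM in Healthy low, Healthy high, CYTO low and CYTO high PMN cows, and ATP5B, the beta subunit, 566 ± 81.3 CPM, 627 ± 109 CPM, 575 ± 52.2 CPM and 556 ± 46.8 CPM. UQCRFS1, the Rieske iron-sulfur protein of complex III, was 96.9 ± 18.6 CPM, 104 ± 16.6 CPM, 92.6 ± 14.4 CPM and 96.5 ± 7.00 CPM in the same order. These 3 are among the members with the highest CPM in their complexes, as are NDUFS1, NDUFAF1 and NDUFAF7 described above. None of ATP5A1, ATP5B and UQCRFS1 was called in any comparison by limma, and group means differed by less than the SD of at least 1 group. UQCRC2, the other core protein of complex III, ranged from 29.2 CPM in s1239 to 116 CPM. NDUFAF3, an assembly factor of complex I, ranged from 7.31 CPM, also in s1239, to 23.2 CPM, and its next lowest value was 8.28 CPM.

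Isoform families of the nuclear subunits were followed by name. COX4I1, the ubiquitous form of complex IV subunit 4, was 295 ± 128 CPM in Healthy low PMN, 315 ± 56.9 CPM in Healthy high PMN, 248 ± 33.9 CPM in CYTO low PMN and 320.5 ± 75.7 CPM in CYTO high PMN cows, and the lowest cow was s2570 at 112 CPM. COX7A1, the muscle form of subunit VIIa, was 12.6 ± 5.30 CPM, 18.1 ± 4.25 CPM, 15.9 ± 4.35 CPM and 19.7 ± 11.03 CPM in the same groups, and COX7A2, the form found in most tissues, 32.4 ± 7.40 CPM, 28.4 ± 4.11 CPM, 26.8 ± 2.31 CPM and 29.1 ± 3.96 CPM. COX7A2L was 143 ± 19.7 CPM, 146 ± 34.02 CPM, 159 ± 26.5 CPM and 129 ± 24.1 CPM. Neither form of subunit VIIa nor COX7A2L was called in any comparison by limma. COX6B1, which links the monomers of the complex IV dimer, and COX5A, which lies on its matrix side, ranged from 33.4 to 86.4 CPM and from 37.5 to 132 CPM. COX5A was lowest in s1239, and its next lowest value was 63.7 CPM. ATP5G1, ATP5G2 and ATP5G3 encode the same mature subunit c behind different import signals. Over 27 cows they ranged from 16.3 to 58.8, from 80.5 to 384 and from 47.3 to 192 CPM. Each was lowest in s1239, and the next lowest values were 22.4, 149.9 and 100.3 CPM. The correlation of ATP5G2 with ATP5G3 was 0.61, or 0.11 without s1239. Only reads that mapped to 1 place were counted, so members with near-identical copies elsewhere in the genome may be undercounted, by an amount that was not measured.

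Genes beside the pathway give its setting, in CYTO cows and then over both outcomes, at high against low PMN. Of all genes, 25.0% were called in CYTO cows, 17.2% lower. Over both outcomes 28.7% were called, 15.8% lower and 13.0% higher. Of the 11 mitochondrially encoded transcripts, 6 and 10 were called lower and 0 higher, and of the 14 glycolysis genes 13 and 12 were called higher and 0 lower. Complex IV assembly factors, the proteins that insert copper and haem and put the complex together, had 6 of 12 lower in both, and 0 higher. Mitochondrial ribosomal proteins had 5 of 66 lower and 1 higher, and 3 lower and 2 higher. Of 13 genes of the citric acid cycle, which feeds complexes I and II, 1 was lower, and then 1 lower and 1 higher. Among 51 cytosolic ribosomal proteins 2 were lower, and then 3 lower and 2 higher. Regulators of mitochondrial biogenesis had 2 of 9 lower, and then 1. The members stand beside these lists with 7 of 63 lower, and then 5 lower and 1 higher. No test was made between lists.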

How the data were processed

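RNA from endometrial cytobrushes of 30 cows at 7 DPP was sequenced from polyadenylated stranded libraries (TruSeq Stranded mRNA). The submitters' processing notes name STAR, featureCounts, UMD3.1, R 3.3.2 and edgeR 3.18.0, while the study's methods name DESeq2. Reads mapping to 1 place were kept. The deposited values are CPM, which the authors made from the counted reads per gene with no scaling factor, for genes of at least 1 CPM in 5 libraries. The 9 tables also hold the authors' own comparisons (log2 fold change, average level, likelihood ratio, p, FDR and fold), which were not used. Pools were not given per library, so they could not be modelled.

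The 27 cows of the study's final set were grouped by labelled outcome, and by the study's classification of each cow number for PMN at 7 DPP and PVD type; 3 cows outside the set entered no comparison. Each library is 1 cow. Comparisons were fitted with limma 3.58.1 (R 4.3.3, trended eBayes) on log2(CPM + 1) over all genes passing the filter, using only the cows compared, with Benjamini-Hochberg adjustment and calls at an adjusted p under 0.05 and no fold minimum. The pseudocount understates the change of low genes. Changes are high minus low PMN, or disease minus Healthy. Whole reads were recovered from the CPM (100% of 314280 values fell within 0.01 of a whole read, although 13 libraries had under 100 values of at most 20 reads, which left their low values unchecked) for edgeR 4.0.16 and DESeq2 1.42.0 as alternatives. Other alternatives were TMM or RLE scaling, a pseudocount of 0.1, a minimum of 5 CPM or none, a log2 fold beyond 1, 1 fit over the 6 groups, and each cow left out. The fitting scripts were tested on simulated data.

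Named with values were the 3 members of highest mean CPM in each complex, the 3 with the smallest p in each direction of each comparison, isoform families, the 5 with the largest and smallest SD and the 5 least correlated with the rest, and the 5 outside genes most correlated with the members. A member that this rule takes in is not reported here. Members called or counted beyond this rule were named after their values were seen. The members and lists were chosen with earlier results of these data known. No genome was used, so no positions are given.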

Additional observations from a re-analysis of the deposited data

Results flagged for a closer look

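Within groups of 4 or 5 cows, 21 measures (SDHA and the members called in any comparison, and summed levels of all members, of each complex, of mitochondrially encoded transcripts and of glycolysis genes) were examined for a single cow whose gap to the rest took up most of its group's range, by Dixon's criterion. Of 126 groups 13 met it, where chance gives about 1 in 20.

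Cow s1831, Healthy with high PMN, was above the other 4 cows of its group in NDUFB3 (55.4 CPM against 27.4 to 31.3), NDUFB5 (94.9 CPM against 49.1 to 56.9), NDUFS1 (206 CPM against 103 to 130.4) and the summed complex I assembly factors (93.6 CPM against 65.7 to 70.1). Cow s2570, Healthy with low PMN, was above its group in NDUFS1 (247 CPM against 114 to 147). In these same cows COX8A, NDUFB7, ATP5D, NDUFS7 and NDUFS8 were at their lowest of all 27, as were CYC1, NDUFV1 and UQCRC1.

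Cow s1239, PVD with CYTO, was below its group in NDUFB2 (10.2 CPM against 23.9 to 25.1) and above it in NDUFV3 (123 CPM against 71.9 to 76.0). Cow s2184, CYTO with high PMN, was below its group in NDUFB2 (20.3 CPM against 24.5 to 24.9) and above it in NDUFV3 (96.1 CPM against 71.6 to 74.5). In both cows NDUFB2 and NDUFV3 thus lay on opposite sides on CPM. On the TMM scale s1239 was not below its group in NDUFB2 (22.7 against 22.0 to 28.2), and it stayed above in NDUFV3 (274 against 64.3 to 88.1). Cow s2184 stayed below in NDUFB2 (20.6 against 23.2 to 24.8) and above in NDUFV3 (97.8 against 66.8 to 73.4). The PMN comparison, in which these genes also moved in opposite directions, includes s2184 among its high PMN cows. That cow is therefore not separate from the PMN result.

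Cow s2382, CYTO with low PMN, was below its group in UQCRB (53.1 CPM against 66.8 to 70.2) and above it in the summed complex II members (375 CPM against 291 to 314). Cow s2683, PVD alone, was below its group in summed complex II (241 CPM against 398 to 421), and s2161, PVD with CYTO, was above it in summed glycolysis genes (16243.5 CPM against 7304 to 8058).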

How the results depend on the processing

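Counts of members called, over 4 or 5 cows in most groups, changed with single cows and with scaling. For CYTO cows with high against low PMN, 7 members were called beside 25.0% of all genes. There TMM gave 2 (17.0% of all genes), RLE 2 (17.1%), edgeR 2 (17.1%), DESeq2 13 (29.4%) and 1 fit over 6 groups 0 (0.296%). A log2 fold beyond 1 gave 0. Leaving out single cows gave 2 (s2167, with 15.1% of all genes, s2178, s2039 or s2184) to 15 (s2064, with 31.5%). For high against low PMN over both outcomes (6 called, beside 28.7% of all genes), a log2 fold beyond 1 gave 0. Leaving out s1340, s2224 and s2570 together, an alternative chosen after seeing the data, gave 0 (7.86% of all genes). Single cows gave 2 (s1066, with 21.8%, or s2039) to 16 (s1831, with 38.0%). For the slope on PMN (1 called, beside 14.3% of all genes), TMM gave 11 (25.0% of all genes) and RLE 12 (24.2%). Leaving out those 3 cows gave 0, and single cows 0 to 7 (s1831). The test over 6 groups (1 called, beside 16.8% of all genes) gave 3 with TMM (19.3%) and 2 with RLE (18.2%). It gave 0 without those 3 cows, and 0 to 3 (s1890 or s1831) without single cows. COX6C, the member called, was among those called with neither TMM nor RLE. Healthy cows with high against low PMN (0 called) gave 0 to 1 (s1890, with 24.0% of all genes). CYTO against Healthy at low PMN (0) gave 1 with DESeq2 (0.384%), and PVD against Healthy (0) gave 2 in 1 fit over 6 groups (10.7%). The cause of these changes was not tested. Where no share of all genes is given, a count cannot be set against all genes and is no result about the members. In the 4 comparisons with a member called, 16 of 30 counts under other settings stayed within 1.5 times and 14 did not. Of 129 changes of called members 75 stayed past the threshold while 54 missed it.

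Of 102 median changes of the members 17 changed sign under another setting, as did 20 of 174 when a cow was left out. In Healthy cows with high against low PMN the median went from 0.020 to -0.12 with TMM. For CYTO against Healthy at low PMN it went from -0.084 to -0.30 with TMM, -0.29 with RLE, -0.35 with edgeR and -0.34 with DESeq2, and for the interaction from 0.0039 to 0.30 with either scaling. A read was worth 0.0255 to 0.0839 CPM, and the lowest value of a member was 1.68 CPM (COX8A). No paired analysis was possible because each cow belongs to 1 group alone.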

Other observations

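3 cows outside the study's final set have values in the same tables and entered no comparison. The paper left out 3 sequenced cows because their mucus scores pointed to possible clinical metritis, so these cows are unlike the set. Cow s2188 and cow s2672, labelled Clinical, had summed levels of the 63 members of 4991 and 4385 CPM, and s1378, labelled Sub-clinical, 5377 CPM, within the 4130.2 to 6237 CPM of the 26 cows other than s1239. Neutrophil markers summed to 34519 CPM in s2672, above the 27296 CPM of s1239, to 13435 CPM in s2188 and to 11262 CPM in s1378. The member sum of s2672 stood above the 2385 CPM of s1239, and how neutrophil markers go with the member sum was not tested.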
